A study of Drosophila melanogaster with 4 samples.

Results

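The regions described here are Rhi-dependent piRNA source loci (RD-SL) in the heterochromatin of chromosome arm 3L, which the dm3 genome build holds as the separate sequence 3LHet. They are all 1 kb bins that the deposited table of Enok-bound piRNA clusters places on 3LHet and that had values above 0 in every library. This gave 305 bins of the 2364 in the tables of Enok-bound and Enok-unbound clusters, and they belonged to 5 piRNA clusters, numbered 15, 20, 26, 57 and 131. Rhi ChIP-seq was performed in ovaries with a germline knockdown of *enok* (*enok*_KD, shRNA transgene P{TRiP.HMS02634}attP2) or of EGFP as the control (GFP_KD, shRNA transgene P{VALIUM20-EGFP.shRNA.1}attP2). In both, the shRNA was driven by MTD-Gal4, a combination of 3 Gal4 transgenes under *otu* or *nos* control that are active in germline cells. RNAi ran at 29 °C for 2 to 3 days and the females were 2 to 3 days old, with wet yeast given for 1 to 2 days before dissection in both groups. An IP and an input library were made from each knockdown, so that each group holds 1 library and no difference below has a replicate check.

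Dual-strand piRNA clusters are heterochromatic regions, rich in transposon remnants, from which both strands are transcribed into precursors of the piRNAs that silence transposons in the germline. Rhino (Rhi), a germline HP1 homolog that binds H3K9me3, assembles on these clusters and licenses their transcription without conventional promoters. Enok is the KAT6 acetyltransferase of *Drosophila*, known for acetylating lysine 23 of histone H3. Whole ovaries were used, and these also hold somatic follicle cells in which the driver is not active. Fewer Rhi-positive cells and less Rhi per cell therefore cannot be told apart. The title of the series and its protocol name Rhino as the target of the antibody, and the libraries were read as such, although the design text names RNA polymerase II. Enok-bound is the deposited table's name for the class, and it could not be checked here because the files hold no Enok ChIP values. The paper reports no Enok peaks at the largest Enok-bound cluster, which enters a comparison below. It also reports that Enok was not enriched at source loci whose piRNAs depend on Enok, relative to the independent ones. The name is therefore not evidence that Enok occupies the clusters described here.

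Worked out from the smallest steps in the values, uniquely mapped reads numbered 6657843 (IP) and 8196249 (input) in *enok*_KD, against 8024682 (IP) and 7742110 (input) in GFP_KD. The 305 bins took 0.280% of the reads of the *enok*_KD IP (95% Wilson interval 0.276 to 0.284) and 0.253% of the GFP_KD IP (0.249 to 0.256). In the inputs they took 0.108% in *enok*_KD (0.105 to 0.110) and 0.108% in GFP_KD (0.106 to 0.111). The IP reads thus exceeded the input share in both knockdowns, and the input share was the same to 3 digits. The median bin held 32 reads in the *enok*_KD IP and 23 in its input, against 44 in the GFP_KD IP and 21 in its input. Single bins accordingly carry large counting errors. Counting SEs, and intervals given over bins, do not cover the variation between ovaries.

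Rhi occupancy is given as the log2 ratio of IP to input, both in RPM (reads scaled to the uniquely mapped reads of the library), and the change as occupancy in *enok*_KD minus occupancy in GFP_KD. Over the 305 bins, median occupancy was 0.91 in *enok*_KD (95% interval over bins 0.80 to 1.05) and 1.08 in GFP_KD (0.95 to 1.22). The IP was at least 2-fold over input at 141 bins in *enok*_KD (46.2%) and at 167 bins in GFP_KD (54.8%, Wilson interval 49.1 to 60.2). Over all 2363 bins with values above 0, these shares were 47.6% in *enok*_KD and 48.9% in GFP_KD. The median change was -0.06 (-0.18 to 0.02), with quartiles of -0.56 and 0.32 and extremes of -3.33 and 2.09. In *enok*_KD, 166 of the 305 bins (54.4%) had lower occupancy, beside 53.7% of all bins. It was at least 1.5-fold lower at 75 bins (24.6%, beside 25.4% of all bins) and at least 1.5-fold higher at 50 bins (16.4%, beside 20.9% of all bins). Beyond 1.96 counting SE, 20 bins were lower (6.56%, beside 10.7% of all bins) and 29 were higher (9.51%, beside 11.7% of all bins). The shares of lower and higher bins lay near or below those of all bins, and the set as a whole had no common direction.

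The 5 clusters differed from each other in direction. Clusters 15, 20 and 57 had lower median occupancy in *enok*_KD, clusters 26 and 131 had higher median occupancy, and the 5 medians of the change spanned 0.68 on the log2 scale. The pattern along each cluster is shown in the plot of occupancy by distance.

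**Figure D1:**
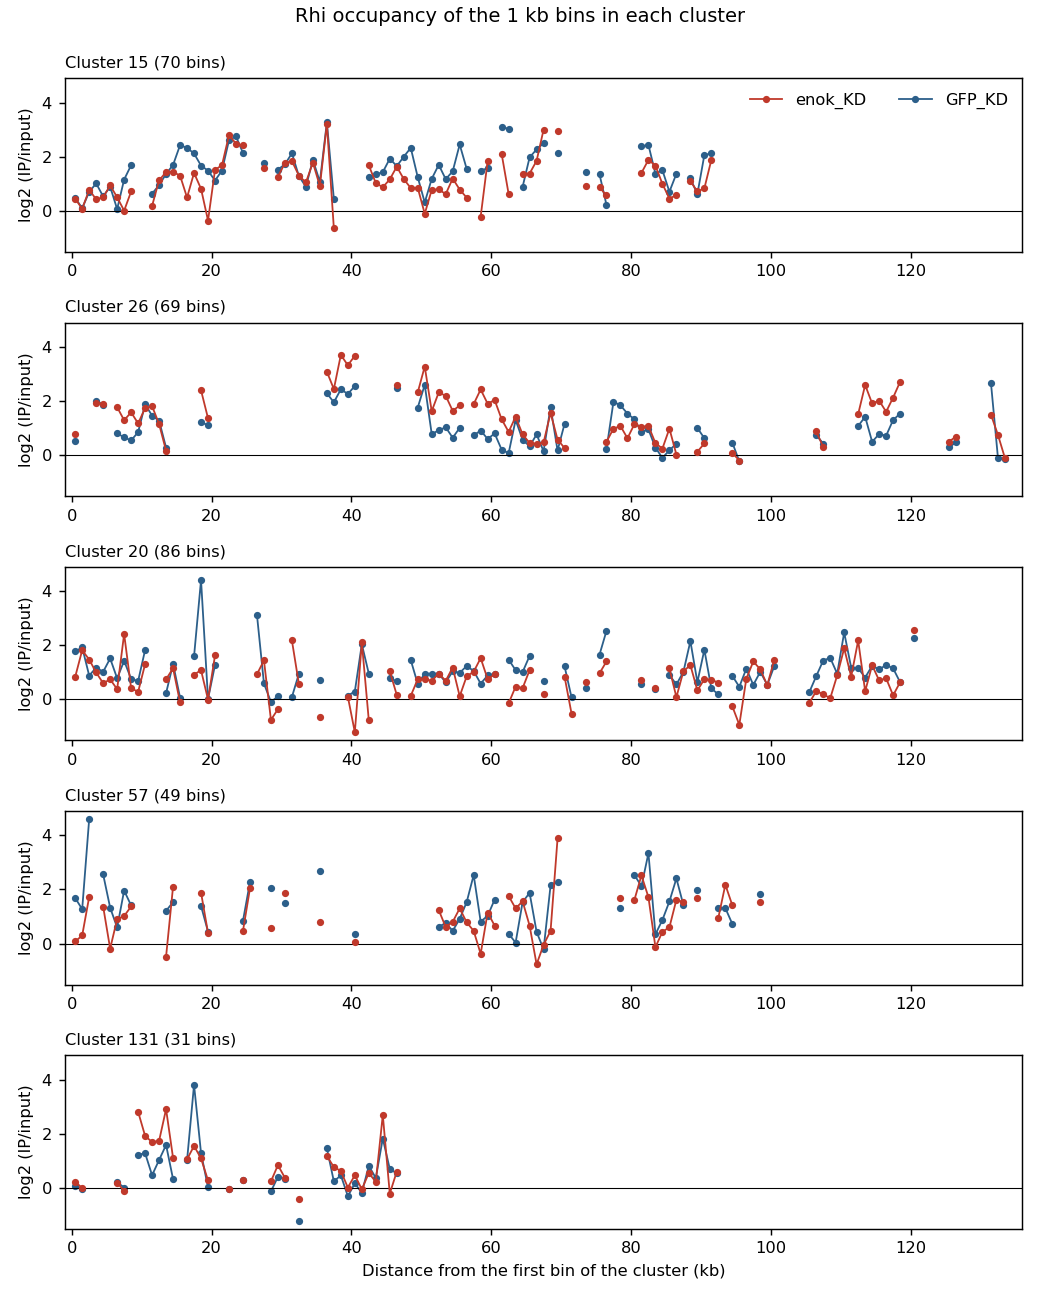
Rhi occupancy (log2 of IP over input, vertical axis) of each 1 kb bin along the 5 clusters, by distance in kb from the first bin of the cluster; *enok*_KD is red and GFP_KD is blue, lines join neighbouring bins, and gaps are stretches with no listed bin. In cluster 26 the *enok*_KD points lie above the GFP_KD points in a stretch of 12 bins near 50 to 63 kb and in 6 bins near 113 to 119 kb, whereas in cluster 57 the first 5 bins lie lower in *enok*_KD.

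Cluster 26 had the highest median change of the 5. It spanned 496001 to 629871 on 3LHet (dm3), and its 69 bins covered 51.4% of that span. Median occupancy was 1.36 in *enok*_KD and 0.85 in GFP_KD, and the median change was 0.32 (95% interval over bins 0.17 to 0.79). Occupancy was higher in *enok*_KD at 52 of the 69 bins (75.4%, beside 46.3% of all bins). It was at least 1.5-fold higher at 28 (40.6%, beside 20.9% of all bins) and at least 1.5-fold lower at 6 (8.70%, beside 25.4%). Beyond counting error, 22 bins were higher (31.9%, beside 11.7% of all bins) and 1 was lower (1.45%, beside 10.7%). Reads pooled over the cluster numbered 8769 in the *enok*_KD IP and 3151 in its input, against 6655 in the GFP_KD IP and 2900 in its input. The *enok*_KD IP thus had more reads here although it was the shallower library. After scaling to library size, the IP was 3.43-fold over input in *enok*_KD and 2.21-fold in GFP_KD, a pooled change of 0.63 ± 0.044 (counting SE). The input itself changed by 0.04 ± 0.037 between the knockdowns. Pooled values weight bins by their reads. The 3 bins from 534001 to 537000 held 2698 of the *enok*_KD and 1592 of the GFP_KD IP reads.

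The higher bins of cluster 26 lay side by side. Runs of bins past 1.5-fold in 1 direction, with at most 1 missing bin between neighbours, were drawn after the values were seen and are given as a description. The longest such run in any of the 5 clusters covered 12 bins from 546001 to 559000. In it, bin changes ranged from 0.67 to 1.52 with a median of 1.14, and 11 of the 12 bins were higher beyond counting error. Its reads numbered 1689 in the *enok*_KD IP and 572 in its input, against 1086 in the GFP_KD IP and 622 in its input. Pooled occupancy was thus 3.64-fold over input in *enok*_KD and 1.68-fold in GFP_KD.

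Within this run, the bin starting at 554001 had the largest rise of cluster 26, with 20.8 RPM in the *enok*_KD IP and 3.88 RPM in its input, against 11.1 RPM in the GFP_KD IP and 5.91 RPM in its input. The change was 1.52 ± 0.44 (counting SE), from an IP that was higher and an input that was lower in *enok*_KD. The bin overlapped a peak in the *enok*_KD list only. Next came the bin at 610001, with 11.1 RPM in the *enok*_KD IP and 2.96 RPM in its input, against 6.59 RPM in the GFP_KD IP and 4.69 RPM in its input (change 1.42 ± 0.48). It belonged to a run of 6 bins from 609001 to 615000, whose median change was 1.17, and 4 of them passed counting error.

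A short run of 3 bins from 534001 to 537000 held the highest occupancy of cluster 26 in *enok*_KD. The bin starting at 534001 had 57.7 RPM in the *enok*_KD IP and 4.44 RPM in its input, against 26.9 RPM in the GFP_KD IP and 4.99 RPM in its input. The inputs were close while the IP was higher in *enok*_KD. The 2 bins beside it had IP values of 824 and 2243 RPM in *enok*_KD, against 414 and 1087 RPM in GFP_KD. Their inputs were 82.6 and 176 RPM in *enok*_KD, against 86.6 and 185 RPM in GFP_KD. All 3 bins were about equally changed, by 1.06 to 1.27, and pooled occupancy was 11.7-fold over input in *enok*_KD and 5.41-fold in GFP_KD. A further run of 3 bins from 502001 to 505000 was also higher in *enok*_KD (median change 0.96, with 2 bins beyond counting error). Falls in this cluster were fewer. The largest was at the bin starting at 627001, with 21.8 RPM in the *enok*_KD IP and 7.76 RPM in its input, against 29.5 RPM in the GFP_KD IP and 4.70 RPM in its input. Its change of -1.16 ± 1.01 (counting SE) rested on 7 input reads in *enok*_KD and 4 in GFP_KD. Occupancy at the bin starting at 573001 fell by 1.00 ± 0.57 and opened a run of 3 lower bins up to 576000, none of them beyond counting error.

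Cluster 131 was the other cluster with higher occupancy in *enok*_KD. It spanned 1166304 to 1213000, and its 31 bins had a median occupancy of 0.55 in *enok*_KD and 0.36 in GFP_KD. These were the lowest medians of the 5 clusters in both knockdowns. The median change was 0.16 (0.01 to 0.43), and with the IP alone it was 0.087 (-0.07 to 0.25), an interval that includes 0. In this cluster 8 bins were at least 1.5-fold higher (25.8%, beside 20.9% of all bins) and 2 at least 1.5-fold lower (6.45%, beside 25.4%). Beyond counting error, 5 bins were higher (16.1%, beside 11.7% of all bins) and 0 were lower (beside 10.7%). The pooled reads, 1773 in the *enok*_KD IP and 1044 in its input against 1661 in the GFP_KD IP and 1076 in its input, gave a larger change of 0.49 ± 0.080. Pooling weights each bin by its reads, and in this cluster 986 of the 1773 *enok*_KD IP reads and 705 of the 1661 GFP_KD IP reads came from a single run.

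That run held 6 bins from 1175001 to 1181000 with a median change of 1.00, and 5 of them passed counting error. Its occupancy was 4.17-fold over input in *enok*_KD and 2.07-fold in GFP_KD. Its first bin, at 1175001, had 25.0 RPM in the *enok*_KD IP and 3.57 RPM in its input, against 21.1 RPM in the GFP_KD IP and 9.06 RPM in its input. Most of its change of 1.59 ± 0.61 thus lay in the input, where *enok*_KD minus GFP_KD was -1.35 on the log2 scale. The bin starting at 1179001, in contrast, had 168 RPM in the *enok*_KD IP and 22.4 RPM in its input, against 86.2 RPM in the GFP_KD IP and 28.7 RPM in its input. It had the highest occupancy of cluster 131 in both knockdowns among bins of at least 2 RPM in every library (2.91 in *enok*_KD and 1.58 in GFP_KD), and its change was 1.32 ± 0.28. The largest fall among such bins was at 1211001, by 0.91 ± 0.57, with 4.47 RPM in the *enok*_KD IP and 5.19 RPM in its input, against 6.54 RPM in the GFP_KD IP and 4.03 RPM in its input, and lay within counting error. The next change, at 1208001, was -0.27 ± 0.58.

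**Figure D2:**
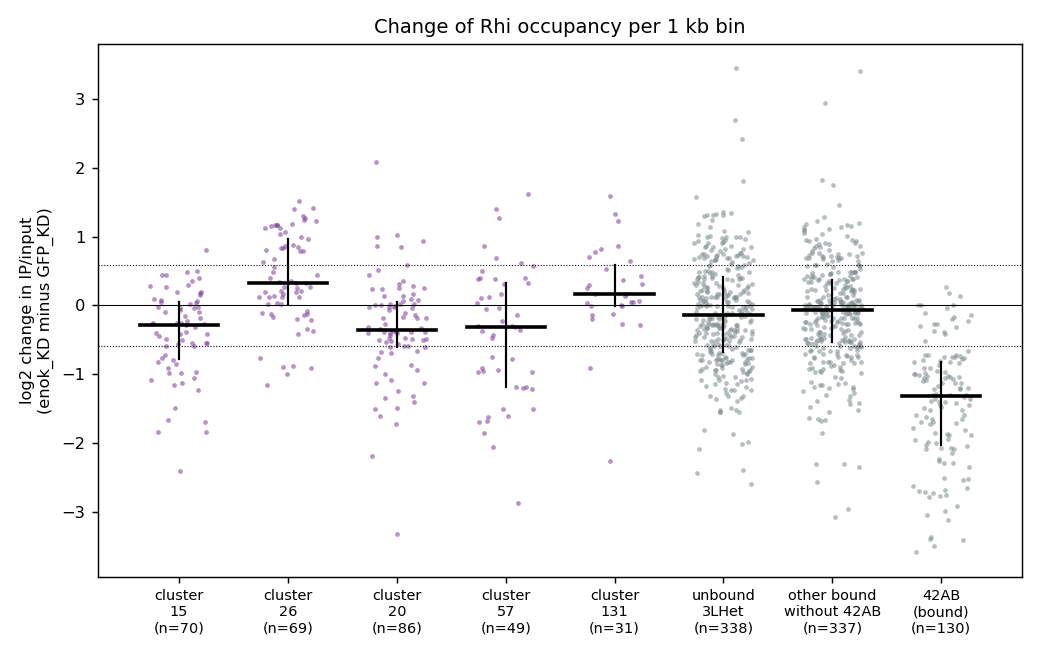
Change of Rhi occupancy (log2, *enok*_KD minus GFP_KD, vertical axis) of each 1 kb bin in the 5 clusters of 3LHet (purple) and in the comparison bins (grey); thick bars are medians, thin bars run between the quartiles, and dotted lines mark 1.5-fold. The medians are -0.28, 0.32, -0.36, -0.31 and 0.16 from cluster 15 to cluster 131 in the order drawn, and the points of every cluster cross 0.

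Cluster 57, from 992060 to 1090427, held the steepest fall among bins with at least 2 RPM in every library. Its 49 bins covered 49.2% of the span. Median occupancy was 1.02 in *enok*_KD and 1.41 in GFP_KD, and the median change was -0.31 (-0.91 to 0.03), so the interval over bins reached 0. It was -0.10 (-0.36 to 0.31) over bins with at least 20 reads in every library and -0.61 (-1.19 to 0.03) over bins with a mappability index of at least 0.5. The bins were at least 1.5-fold lower in 20 cases (40.8%, beside 25.4% of all bins) and at least 1.5-fold higher in 6 (12.2%, beside 20.9%). Beyond counting error, however, only 3 were lower (6.12%, beside 10.7% of all bins) and 1 was higher (2.04%, beside 11.7%). This cluster was the thinnest covered, with a median of 13 reads in the *enok*_KD IP and 10 in its input, against 21 in the GFP_KD IP and 9 in its input. Over all its bins, 1477 reads in the *enok*_KD IP and 870 in its input stood against 2430 in the GFP_KD IP and 814 in its input. The pooled change was -0.46 ± 0.085.

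Occupancy was lowest relative to GFP_KD at the start of the cluster. The first 5 bins, from 992060 to 998000, had a median change of -1.51, and 2 of them passed counting error. There, pooled occupancy was 2.23-fold over input in *enok*_KD and 9.18-fold in GFP_KD. The bin starting at 994001 dominated this run, since it held 352 of the 590 GFP_KD IP reads. It had 17.7 RPM in the *enok*_KD IP and 5.35 RPM in its input, against 87.4 RPM in the GFP_KD IP and 3.60 RPM in its input. The IP was 3.30-fold over input in *enok*_KD and 24.3-fold in GFP_KD, which was the highest occupancy of any of the 305 bins, and the change was -2.88 ± 0.53 (counting SE). These ratios rest on 22 input reads in *enok*_KD and 14 in GFP_KD, and on 59 IP reads in *enok*_KD and 352 in GFP_KD. At 996001 the values were 29.1 RPM in the *enok*_KD IP and 11.3 RPM in its input, against 107 RPM in the GFP_KD IP and 18.2 RPM in its input, a change of -1.19.

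Some bins of cluster 57 had higher values in *enok*_KD. At 1022001, the *enok*_KD IP had 162 RPM and its input 44.1 RPM, against 105 RPM in the GFP_KD IP and 37.8 RPM in its input, and the change of 0.39 ± 0.36 lay within counting error. At 1044001, the *enok*_KD IP had 174 RPM and its input 73.7 RPM, against 116 RPM in the GFP_KD IP and 75.3 RPM in its input. This bin was the one higher beyond counting error, with a change of 0.62 ± 0.28. The second largest fall among bins of at least 2 RPM, at 1027001 (-1.86 ± 0.99), had inputs of 7 reads in *enok*_KD and 5 in GFP_KD and did not pass counting error.

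Cluster 20, from 777001 to 897972, was the largest of the set with 86 bins. Median occupancy was 0.74 in *enok*_KD and 0.95 in GFP_KD, and the median change was -0.36 (-0.47 to -0.11). Of its bins, 59 were lower in *enok*_KD (68.6%, beside 53.7% of all bins). Of the 86 bins, 25 were at least 1.5-fold lower (29.1%, beside 25.4% of all bins). At least 1.5-fold higher were 7 bins (8.14%, beside 20.9% of all bins). Beyond counting error, 7 bins were lower (8.14%, beside 10.7% of all bins) and 0 were higher (beside 11.7%). The pooled reads gave the same size of change, -0.36 ± 0.061, from 2385 reads in the *enok*_KD IP and 1935 in its input against 3536 in the GFP_KD IP and 1753 in its input. The lower bins were scattered. The longest run of lower bins held 3, from 839001 to 842000, of which 1 passed counting error. Changes of directly neighbouring bins had a Pearson correlation of -0.02 over 66 pairs, as against 0.62 over 54 pairs in cluster 26. For the input change alone, this correlation was 0.06 in cluster 20 and 0.33 in cluster 26. Cluster 20 was also thinner covered, with a median of 20.5 reads in the *enok*_KD IP, against 74 in cluster 26. The part of coverage in these correlations was not tested. Pairs share bins and libraries, so these correlations are descriptions.

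Most of the extreme bins of cluster 20 rested on few reads. The steepest fall of the whole set, -3.33 ± 1.63 at 795001, had an input of 7 reads in *enok*_KD and 1 in GFP_KD. At 803001 the IP had 23.9 RPM in *enok*_KD with 12.5 RPM in its input, against 31.4 RPM in the GFP_KD IP and 3.62 RPM in its input. The change of -2.19 ± 1.04 there came mostly from inputs of 11 reads in *enok*_KD and 3 in GFP_KD. Bin 872001 was better covered, with 11 IP and 26 input reads in *enok*_KD against 40 IP and 28 input reads in GFP_KD, and its change of -1.40 ± 0.63 came from the IP. Its IP over input was 0.52-fold in *enok*_KD and 1.38-fold in GFP_KD. Bin 865001 held 164 IP and 84 input reads in *enok*_KD against 336 IP and 73 input reads in GFP_KD. Its change was -0.89 ± 0.27, beyond counting error. The largest rise among bins of at least 2 RPM was 0.94 ± 0.65 at 835001, within counting error. The next, 0.59 ± 0.58 at 779001, also lay within it. The highest *enok*_KD occupancy among such bins, 2.55 at 897001, stood against 2.27 in GFP_KD and rested on 4 input reads in *enok*_KD and 9 in GFP_KD.

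Cluster 15 lay nearest to the start of 3LHet, from 238123 to 330000, and 76.1% of its span was listed. In GFP_KD it had the highest median occupancy of the 5 clusters, 1.49, against 1.04 in *enok*_KD. The IP was at least 2-fold over input at 36 of its 70 bins in *enok*_KD (51.4%, beside 47.6% of all bins). In GFP_KD it was so at 55 bins (78.6%, beside 48.9% of all bins). At least 1.5-fold lower were 22 bins (31.4%, beside 25.4% of all bins), and 1 was at least 1.5-fold higher (1.43%, beside 20.9%). Beyond counting error, 9 bins were lower (12.9%, beside 10.7% of all bins) and 1 was higher (1.43%, beside 11.7%). The cluster's median change was -0.28 (-0.50 to -0.10). Its pooled change was smaller, -0.14 ± 0.056, from 4228 reads in the *enok*_KD IP and 1822 in its input against 5996 in the GFP_KD IP and 1841 in its input. Between the inputs, the median bin changed by -0.14 (-0.23 to -0.03), and this was the one cluster whose input interval did not reach 0. When RPM values were summed over the cluster, the sign of the change turned (0.034).

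Among the bins with the most IP reads in cluster 15, changes had both signs. Of those named here, only the rise at 307001 passed counting error. The bin starting at 307001 had 681 RPM in the *enok*_KD IP and 88.7 RPM in its input, against 470 RPM in the GFP_KD IP and 107 RPM in its input, and was higher by 0.80 ± 0.24. Next to it, the bin starting at 305001 had 294 RPM in the *enok*_KD IP and 36.8 RPM in its input, against 323 RPM in the GFP_KD IP and 57.1 RPM in its input. Its change of 0.50 ± 0.29 lay within counting error and came from the input. Both bins overlapped peaks in both lists. At 261001, a bin of similar depth with 340 IP reads in *enok*_KD and 405 in GFP_KD, the change was -0.27 ± 0.27, within counting error.

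Lower bins formed 2 runs of at least 3 bins in cluster 15. From 253001 to 258000, 5 bins had a median change of -1.13, and 1 of them passed counting error. Pooled occupancy over these bins was 1.45-fold over input in *enok*_KD and 3.70-fold in GFP_KD. The last of them, at 257001, had 3.61 RPM in the *enok*_KD IP and 4.63 RPM in its input, against 9.14 RPM in the GFP_KD IP and 3.27 RPM in its input. Its IP was below its input in *enok*_KD and 2.80-fold over input in GFP_KD, a change of -1.84 ± 0.56. From 293001 to 297000, 3 bins had a median change of -1.67 and all 3 passed counting error. The largest fall of the cluster, -2.41 ± 0.76 at 300001, had 22.2 RPM in the *enok*_KD IP and 14.4 RPM in its input, against 37.6 RPM in the GFP_KD IP and 4.59 RPM in its input, with 20 input reads in *enok*_KD and 6 in GFP_KD. The bin before it, at 299001, had the highest GFP_KD occupancy of the cluster among bins of at least 2 RPM, 2.11 in *enok*_KD and 3.09 in GFP_KD, from 8 input reads in *enok*_KD and 5 in GFP_KD.

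**Figure D3:**
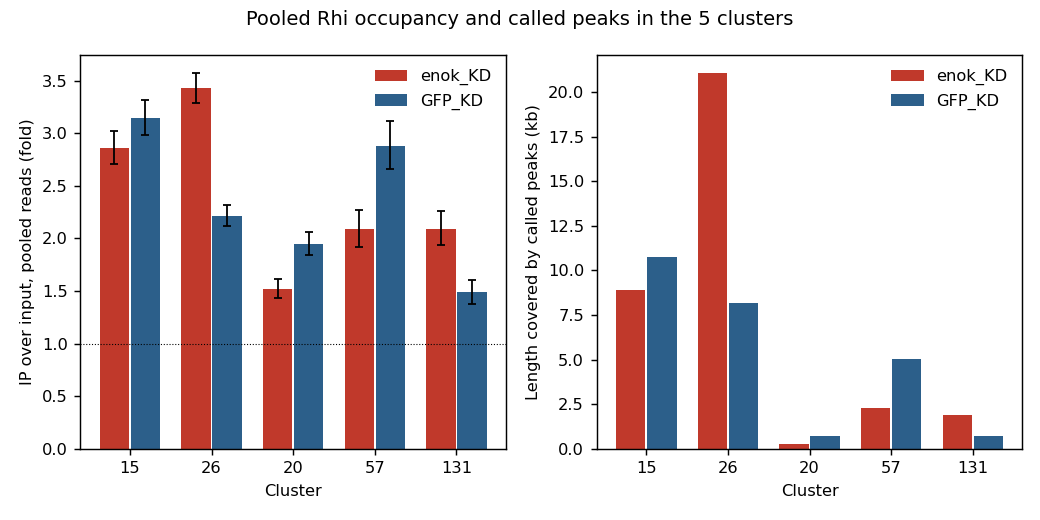
Left, IP over input in fold from reads pooled over the bins of each cluster (bars from 0, with 95% counting intervals); right, length in kb covered by called peaks within the span of each cluster. *enok*_KD is red and GFP_KD is blue. Pooled occupancy is 3.43-fold in *enok*_KD and 2.21-fold in GFP_KD at cluster 26, and peaks there cover 21.1 kb in *enok*_KD and 8.15 kb in GFP_KD.

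The peak lists, called by the authors on each IP separately, gave a readout that does not use the bins. Of the 305 bins, 38 overlapped an *enok*_KD peak and 30 a GFP_KD peak, beside 15.7% of all bins in each list. Both lists were overlapped by 20 bins (6.56%, beside 10.8% of all bins). The full lists held 817 *enok*_KD peaks and 1066 GFP_KD peaks, of which 121 in *enok*_KD and 154 in GFP_KD lay on 3LHet. At the 305 bins, 31 *enok*_KD peaks covered 27.1 kb and 26 GFP_KD peaks covered 19.7 kb. Of these, 16 *enok*_KD peaks (51.6%) overlapped any GFP_KD peak and 17 GFP_KD peaks (65.4%) overlapped any *enok*_KD peak. The same IP reads underlie bins and peaks, so the lists are not an independent measurement.

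By cluster, peak length and median change pointed the same way. Peak numbers and lengths per cluster are for its whole span, including stretches with no listed bin. Median changes are over the listed bins only, so the sets are not the same. The GFP_KD IP was also the deeper library, with more peaks in its full list. The part of depth in peak number and length was not tested. Within the span of cluster 26, 27 peaks covered 21.1 kb in *enok*_KD and 10 covered 8.15 kb in GFP_KD. All 16 bins with a peak in the *enok*_KD list alone in this cluster, together with 2 in cluster 131, made up the 18 such bins of the set (5.90%, beside 4.91% of all bins). In cluster 131, 4 peaks covered 1.89 kb in *enok*_KD and 3 covered 0.730 kb in GFP_KD. In the other clusters, peaks covered more length in GFP_KD. Cluster 57 had 5 peaks over 2.26 kb in *enok*_KD and 16 over 5.01 kb in GFP_KD, and cluster 15 had 11 peaks over 8.91 kb in *enok*_KD and 11 over 10.7 kb in GFP_KD. Cluster 20 had almost none, with 1 peak over 0.248 kb in *enok*_KD and 3 over 0.718 kb in GFP_KD.

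The peak of highest fold enrichment in *enok*_KD lay in cluster 131, from 1178941 to 1179581, in the bin with the highest occupancy of that cluster. It was enriched 16.0-fold in *enok*_KD, and the GFP_KD peak it overlapped was enriched 7.88-fold. The second lay in cluster 26, from 534381 to 542359, and was enriched 10.8-fold. This single *enok*_KD peak of 7979 bp overlapped 4 separate GFP_KD peaks, the highest at 6.94-fold, over the 3 bins described above and those that follow them. The 3 most enriched *enok*_KD peaks without a GFP_KD overlap all lay in the run of 12 higher bins of cluster 26. They ran from 547926 to 548463 (5.46-fold), from 548899 to 549336 (4.84-fold) and from 554711 to 555965 (4.84-fold). The other 3 of the 5 most enriched *enok*_KD peaks all overlapped a GFP_KD peak. In cluster 131, the peak from 1176469 to 1176973 was enriched 8.38-fold in *enok*_KD and 4.53-fold in GFP_KD. In cluster 57, the peak from 1022494 to 1022814 was enriched 7.56-fold in *enok*_KD and 3.21-fold in GFP_KD. The peak from 305186 to 308455 in cluster 15 was alike in both lists, at 7.55-fold in *enok*_KD and 8.04-fold in GFP_KD.

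In GFP_KD the peak of highest fold enrichment, 13.0-fold, ran from 994267 to 994799 in cluster 57 and had no overlapping *enok*_KD peak. It lay in the bin with the highest GFP_KD occupancy of the set. The next most enriched GFP_KD peaks without an *enok*_KD overlap were close by, from 995935 to 996175 (6.86-fold) and from 996775 to 996961 (6.15-fold). The 3 therefore fell within the same run of lower bins at the start of cluster 57. In cluster 26, which was higher in *enok*_KD as a whole, GFP_KD peaks of 11.0-fold from 499167 to 499645 and of 9.66-fold from 500272 to 500728 overlapped *enok*_KD peaks of at most 5.20-fold. The bins that hold these 2 peaks did not show that difference, with changes of -0.08 ± 0.27 at 499001 and 0.03 ± 0.26 at 500001. The remaining 2 of the 5 most enriched GFP_KD peaks lay in clusters 15 and 20. From 260270 to 261641 in cluster 15, the enrichment was at most 6.52-fold in *enok*_KD and 9.35-fold in GFP_KD, and from 865514 to 865761 in cluster 20 it was 3.57-fold in *enok*_KD and 8.65-fold in GFP_KD. The bins under the peak of cluster 15 changed by 0.19 ± 0.26 at 260001 and by -0.27 ± 0.27 at 261001, both within counting error. The bin under the peak of cluster 20, at 865001, changed by -0.89 ± 0.27, beyond counting error.

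**Figure D4:**
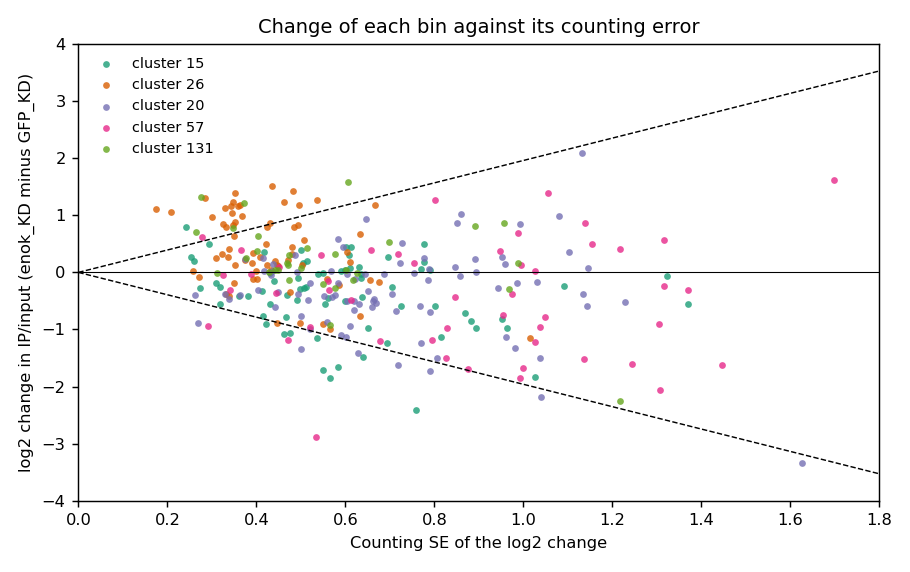
Change of each of the 305 bins (log2, *enok*_KD minus GFP_KD, vertical axis) against its counting SE (horizontal axis), coloured by cluster; dashed lines are at 1.96 SE on either side of 0. Beyond the lines lie 20 lower and 29 higher bins, and 22 of the higher ones belong to cluster 26.

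How the bins are scaled limits which values can be compared. The authors divided reads by a mappability index of the bin, the same in all libraries, and this index could be worked out from the values as the lowest one that gives whole reads. The 94 bins with an index below 0.3 had a median input of 24.7 RPM in *enok*_KD and 23.6 RPM in GFP_KD, whereas the 104 bins at 0.7 or above had 2.04 RPM in *enok*_KD and 1.99 RPM in GFP_KD. RPM levels were therefore not compared between bins. The index cancels from IP over input, and the median change was -0.12 below 0.3, -0.02 between the limits and -0.06 at 0.7 or above. Peaks were spread unevenly, with 22 bins overlapping one below 0.3 in each knockdown and, at 0.7 or above, 5 in *enok*_KD and 1 in GFP_KD. In cluster 26 the median change was 0.21 over the 30 bins below 0.3 and 0.67 over the 39 others, so the higher occupancy there was present in well mappable bins.

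Occupancy along a cluster was partly shared between the knockdowns. Over the 305 bins, occupancy in *enok*_KD and in GFP_KD had a Pearson correlation of 0.54 and a Spearman correlation of 0.56. Within clusters, Pearson's correlation was 0.72 in cluster 26, 0.70 in cluster 131, 0.64 in cluster 15, 0.45 in cluster 20 and 0.40 in cluster 57. Bins of 1 library share its depth and base composition, so these are descriptions.

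The Enok-unbound clusters of 3LHet, with 338 bins in 11 clusters, are the nearest comparison. Their median change was -0.14 (-0.27 to -0.01), and the Enok-bound bins lay above them by 0.07 (-0.09 to 0.24), an interval over bins that includes 0. Their 10 clusters with at least 10 bins ranged from -0.79 to 0.57, with 7 medians below 0 and 3 above. This was a wider range than that of the 5 Enok-bound clusters, but over more clusters. Some of them held few bins, such as cluster 140 with 10 bins and an interval of -0.82 to 0.67. Clusters with opposite directions were thus found in both classes on this sequence. Against the 467 other Enok-bound bins, whose median change was -0.32, the Enok-bound bins of 3LHet lay higher by 0.26 (0.10 to 0.42). That comparison includes 42AB, a large dual-strand cluster with 130 bins. Without it, the remaining 337 Enok-bound bins had a median change of -0.07, and the difference was 0.0065 (-0.11 to 0.13). With 1 library per group, none of these differences could be tested.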

How the data were processed

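Ovary chromatin was immunoprecipitated with α-Rhi, and single-end reads were trimmed with Trimmomatic and aligned by the authors with Bowtie2 (version 2.2.1) to the dm3 genome, keeping reads that mapped uniquely with 0 mismatches. The deposited bin tables hold RPM, reads scaled to the library's uniquely mapped reads, divided by a mappability index. The deposited peak lists, called with MACS2 on each IP, give fold enrichment as a ratio and the −log10 of p- and q-values. The version, settings and control are not given in the sources used here. No sequence or gene annotation of dm3 was used here.

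Analyses used Python 3.11.15 (numpy 2.4.6, pandas 2.3.3, scipy 1.17.1). Bins with 0 in any library were excluded. No pseudocount was added. Whole reads (tolerance 0.002) were recovered with the lowest index of 3 decimals that fitted all 4 libraries, in 100% of 2363 bins. A single index was possible at 160 of the 305 bins (52.5%), and elsewhere recovered reads are the lowest possible and counting SEs upper limits. In simulated tables, 95.9% of 2297 bins gave back their exact reads. Medians carry 95% binomial order-statistic intervals and shares Wilson intervals. Intervals of a difference between medians combine the half-widths of both intervals in quadrature, as if these were symmetric and independent. No test over bins was run, since bins are not replicates. Peaks were matched to bins by any overlap. Named are all 5 clusters and, in each, the 2 largest falls and rises and the highest occupancies among bins of at least 2 RPM in every library. Also named are the 5 most enriched peaks of each list and the 3 most enriched without an overlap. Other bins, and the runs, were chosen after their values were seen, and the members, lists and comparisons were chosen with earlier results of these data known.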

Additional observations from a re-analysis of the deposited data

How the results depend on the processing

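Of 120 alternative values, 93 stayed within the interval of the value reported, or within 1.5 times for counts, and the others are given below. The mean of both inputs cancels from the change, so its values repeat those of the IP alone, and both are counted in the 120. Settings chosen after seeing the data (pooled reads, at least 20 reads, index of at least 0.5) gave 32 of the 120. The cause was not tested. The change over all 305 bins had no stable sign. It was -0.24 without cluster 26, 0.02 without cluster 20, 0.0037 without cluster 15, -0.28 with each cluster counted once, 0.24 by RPM sums, 0.16 by pooled reads and 0.045 at the 147 bins with at least 20 reads in every library. Those 147 bins had occupancies of 0.79 in *enok*_KD and 0.76 in GFP_KD, with 44.9% lower, 12.2% at least 1.5-fold lower and 21.1% at least 1.5-fold higher. Without cluster 26, 63.1% of bins were lower and 9.32% at least 1.5-fold higher. With at least 2 RPM, 19.8% were at least 1.5-fold lower. Occupancy was 0.75 in *enok*_KD and 0.87 in GFP_KD with a pseudocount of 1 RPM, 1.07 in *enok*_KD without cluster 20 and 0.95 in GFP_KD without cluster 15. Cluster 15 changed by 0.034 by RPM sums, and by -0.54 with the IP alone or with the mean of both inputs, which then cancels. Cluster 131 changed by 0.48 by RPM sums and 0.49 by pooled reads, but by 0.087 with the IP alone or the mean of both inputs and by 0.12 with the pseudocount, where its interval included 0, and cluster 26 by 0.83 at an index of at least 0.5. Cluster 57 changed by -0.10 with at least 20 reads and -0.61 at an index of at least 0.5. The difference from Enok-unbound 3LHet bins changed sign, to -0.24 with each cluster counted once, and that from other Enok-bound bins was 0.0065 without 42AB. With 50% of a bin covered, 18 bins had an *enok*_KD peak and 10 a GFP_KD peak. No paired analysis was possible because there was 1 library per group, which also left no library to leave out.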
